A study of Mus musculus with 6 samples.

Results

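Imprinted genes are genes whose copies are used unequally according to the parent that transmitted them. A list of 34 such genes was followed in mouse embryonic stem cells (ESCs) and in neuronal cells derived from them (NCs). They were found by gene name in a table of 23235 rows, and 33 of the 34 had a row. From general knowledge of the mouse, 19 of the listed genes are expressed from the paternal copy and 15 from the maternal copy, and they lie in 14 chromosomal domains. For some of them the imprint is limited to certain tissues. Mirg, a maternally expressed noncoding RNA, was the gene with no row, so 14 maternally expressed genes could be measured.

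Both groups were E14Tg2a cells, a mouse ESC line, at passages 37 to 40. The ESC group was kept with LIF, the cytokine that holds these cells pluripotent, and comprised 3 samples. The NC group, also of 3 samples, had been grown without LIF for 2 days (48 h) in 1 µM retinoic acid (RA). The question was how the RNA levels of the listed genes differed between the groups, and whether paternally and maternally expressed genes differed alike. Levels are the deposited FPKM, which count fragments per kilobase of transcript and scale them to the mapped fragments. The deposited table gives 1 value per gene and condition, pooled over the 3 samples. No value of a single sample was used, so no SD, standard error or test is given, every difference stands without a check against replicate spread, and every fold is a description of these deposited values.

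Imprinting starts in the germ line, where DNA methylation is laid down on control regions in either the egg or the sperm. After fertilization the mark is kept on the allele of that parent, with the zinc finger protein ZFP57 and its partner TRIM28 holding it in place in early embryos and ESCs. Many paternally expressed genes are known to favour fetal growth and several maternally expressed genes to restrain it, and many are highly expressed in the placenta, the embryo and the developing brain. Genes of a domain share a control region, and a noncoding RNA from one parental chromosome often accompanies silencing of the neighbouring genes on it. E14Tg2a derives from an inbred strain, so fragments of the parental alleles cannot be told apart. Every FPKM below is the summed RNA of both alleles, and nothing is measured about which allele was used or about methylation. In such bulk samples, more cells that express a gene and more RNA per cell cannot be told apart.

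Paternally expressed genes were on the whole higher in NCs, whereas maternally expressed genes were split. A gene was counted as risen or fallen when its FPKM differed at least 2-fold between the conditions and averaged at least 1 over them, a filter that 31 of the 33 genes passed. Of these 31, 16 rose, 3 fell and 12 lay within 2-fold. Among the 17 paternally expressed genes that passed, 11 rose, 1 fell and 5 lay within 2-fold. Among the 14 maternally expressed genes, 5 rose, 2 fell and 7 lay within 2-fold. Over all 12784 genes that passed the same filter, 11.1% rose and 9.93% fell. The median log2 ratio of NC to ESC FPKM was 2.03 for the paternally expressed genes, -0.06 for the maternally expressed genes and -0.04 for all genes. With 1 value per domain the maternal median turned to 0.65 and the paternal median was 2.30. With the genes whose imprint is limited to some tissues left out, the maternal median was -0.23 and the paternal median 2.03.

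The filter itself can favour a difference, since 5 of the genes that passed (Airn, Zim1, Asb4, Magel2 and Dcn) had less than 1 FPKM in ESCs and passed only through their NC value. Ascl2 passed only through its ESC value. With at least 1 FPKM required in both conditions, 25 imprinted genes were left, of which 11 rose and 2 fell. These divided into 15 paternally expressed genes, 9 of them risen and 1 fallen, and 10 maternally expressed genes, 2 of them risen and 1 fallen. Over all 11717 genes under this requirement 7.45% rose and 7.89% fell. The medians were 2.03 for paternally expressed genes, -0.22 for maternally expressed genes and -0.05 for all genes. The counts of falls depended on the scale. The FPKM of all genes summed to 770592 in ESCs and 628679 in NCs, and scaling both to the same sum raises every log2 ratio by 0.29. On that scale 2093 genes rose and 865 fell, against 1419 and 1270 as deposited, and of the imprinted genes 16 rose and 1 fell, while the maternal median became 0.24.

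**Figure D1:**
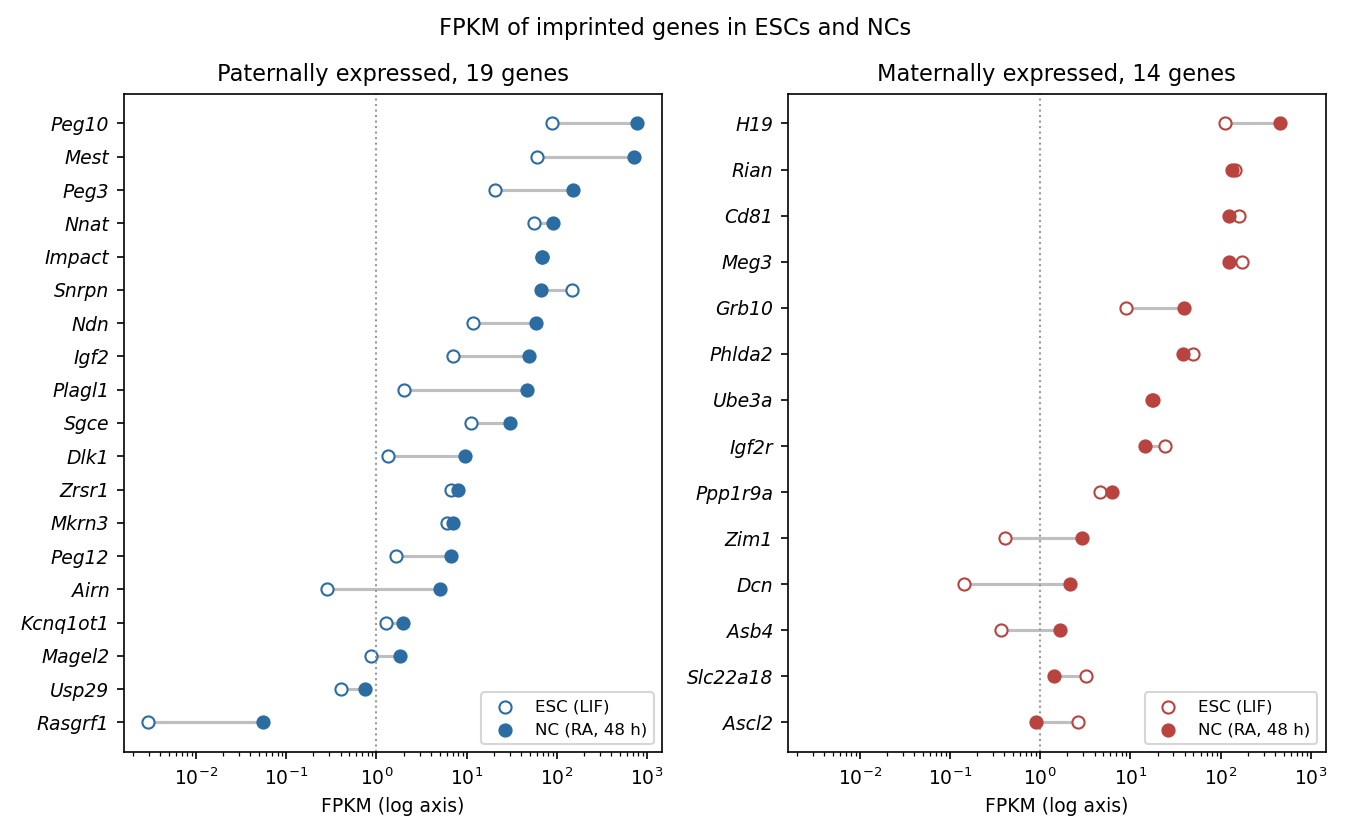
FPKM (log axis) of the 33 imprinted genes with a row, in ESCs (open circles) and NCs (filled circles), joined by a line for each gene, with the 19 paternally expressed genes on the left and the 14 maternally expressed genes on the right, ordered by NC level. The dotted line is 1 FPKM. Most filled circles lie to the right of the open ones on the left side, with Peg10 at 782 and Mest at 707 FPKM at the top, and lines of both directions occur on the right side.

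The summed RNA of the paternally expressed genes rose more than that of the maternally expressed genes, but a few abundant genes led each sum. The paternal sum was the lower one in ESCs and the higher one in NCs. The FPKM of the paternally expressed genes summed to 492 in ESCs and 2092 in NCs, which is 4.25-fold higher. That of the maternally expressed genes summed to 700 and 963, which is 1.38-fold higher. In ESCs the paternal sum was led by Snrpn with 29.9% and Peg10, and Impact held 13.9%. In NCs Peg10 held 37.4% of it, Mest 33.8% and Peg3 7.18%. The leading maternally expressed genes in ESCs were Meg3, Cd81 and Rian, with 24.8%, 22.7% and 20.6% of the sum, while in NCs H19 alone held 47.1%. H19 went from 112 to 453 FPKM, whereas Meg3, Cd81 and Rian each had a lower deposited FPKM in NCs. Genes at 50 FPKM or more numbered 9 in ESCs and 11 in NCs.

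The growth ligands and their antagonists came from both classes. Igf2 (chromosome 7, 142650766 to 142666816, GRCm38, the build that corresponds to mm10) encodes insulin-like growth factor 2, a fetal growth factor, and is paternally expressed. It rose 6.98-fold, from 6.97 to 48.6 FPKM, although 64.5% of its exon bases lie within the overlapping gene models Gm49394 and Igf2os, which have no row of their own. Igf2r (chromosome 17, 12682406 to 12769664), the maternally expressed receptor that takes IGF2 to the lysosome, went the other way, from 24.0 to 14.7 FPKM, which is 1.63-fold lower and within the 2-fold limit. Grb10 (chromosome 11, 11930508 to 12038683) encodes an adaptor that dampens insulin and IGF receptor signalling, and is maternally expressed in most tissues but paternally in neurons. It rose from 8.84 to 39.5 FPKM, 4.47-fold. Dlk1 (chromosome 12, 109452823 to 109463336), a paternally expressed surface protein of the Notch ligand family, rose 7.23-fold, from 1.34 to 9.65 FPKM.

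The Igf2 and H19 genes lie beside each other on distal chromosome 7 and share an enhancer set, with H19 read from the maternal chromosome and Igf2 from the paternal. H19 (142575529 to 142578143) is a noncoding RNA, and it rose 4.03-fold, from 112 to 453 FPKM. The gene pair thus rose together although its members are expressed from opposite alleles. Both transcripts, like Mest, carry microRNAs within them. Their mature sequences are shown because they are part of 3 of the risen host genes, and microRNA levels were not used here. They are RefSeq sequences on GRCm38.p6, 5′ to 3′, with the seed (bases 2 to 8) in capitals.
miR-675-5p (in H19, chr7:142577112-142577133, minus strand): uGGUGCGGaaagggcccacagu
miR-675-3p (in H19, chr7:142577078-142577099, minus strand): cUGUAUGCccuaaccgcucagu
miR-483-5p (in Igf2, chr7:142654968-142654989, minus strand): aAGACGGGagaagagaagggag
miR-483-3p (in Igf2, chr7:142654932-142654952, minus strand): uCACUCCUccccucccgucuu
miR-335-5p (in Mest, chr6:30741314-30741336, plus strand): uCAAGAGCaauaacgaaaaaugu
miR-335-3p (in Mest, chr6:30741354-30741375, plus strand): uUUUUCAUuauugcuccugacc
No seed is shared among these 6 sequences.

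Of the other listed noncoding RNAs with a value, only Airn rose. Kcnq1ot1, also paternally expressed, and the maternally expressed Meg3 and Rian stayed within 2-fold. Airn (chromosome 17, 12741311 to 12860136) is the paternally expressed RNA antisense to Igf2r, and its transcription is known to silence the paternal Igf2r allele. It rose 17.8-fold, from 0.285 to 5.08 FPKM, or from about 24 to about 442 fragments when read from the smallest step in the table. Airn passed the filter only through its NC value. Kcnq1ot1 (chromosome 7, 143203458 to 143296549), a paternally expressed RNA that accompanies silencing of the neighbouring genes on the same chromosome, went from 1.27 to 1.99 FPKM, a ratio of 1.56 that lay within the limit. It overlaps Kcnq1, which was at 0.0899 and 0.230 FPKM. The maternally expressed RNAs of the Dlk1-Meg3 domain were abundant in both conditions. Meg3 (chromosome 12, 109541001 to 109571726) went from 174 to 125 FPKM, 1.39-fold lower. Rian (109603940 to 109661716), a host of small nucleolar RNAs, was at 144 and 134 FPKM. Both stayed within the 2-fold limit, and Rian turned to a log2 ratio of 0.19 with equal FPKM totals, while Dlk1 in the same domain rose. Mirg (109729764 to 109749460), whose span holds 26 mature microRNAs of 14 microRNA genes in RefSeq, lies beyond them and has no value.

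**Figure D2:**
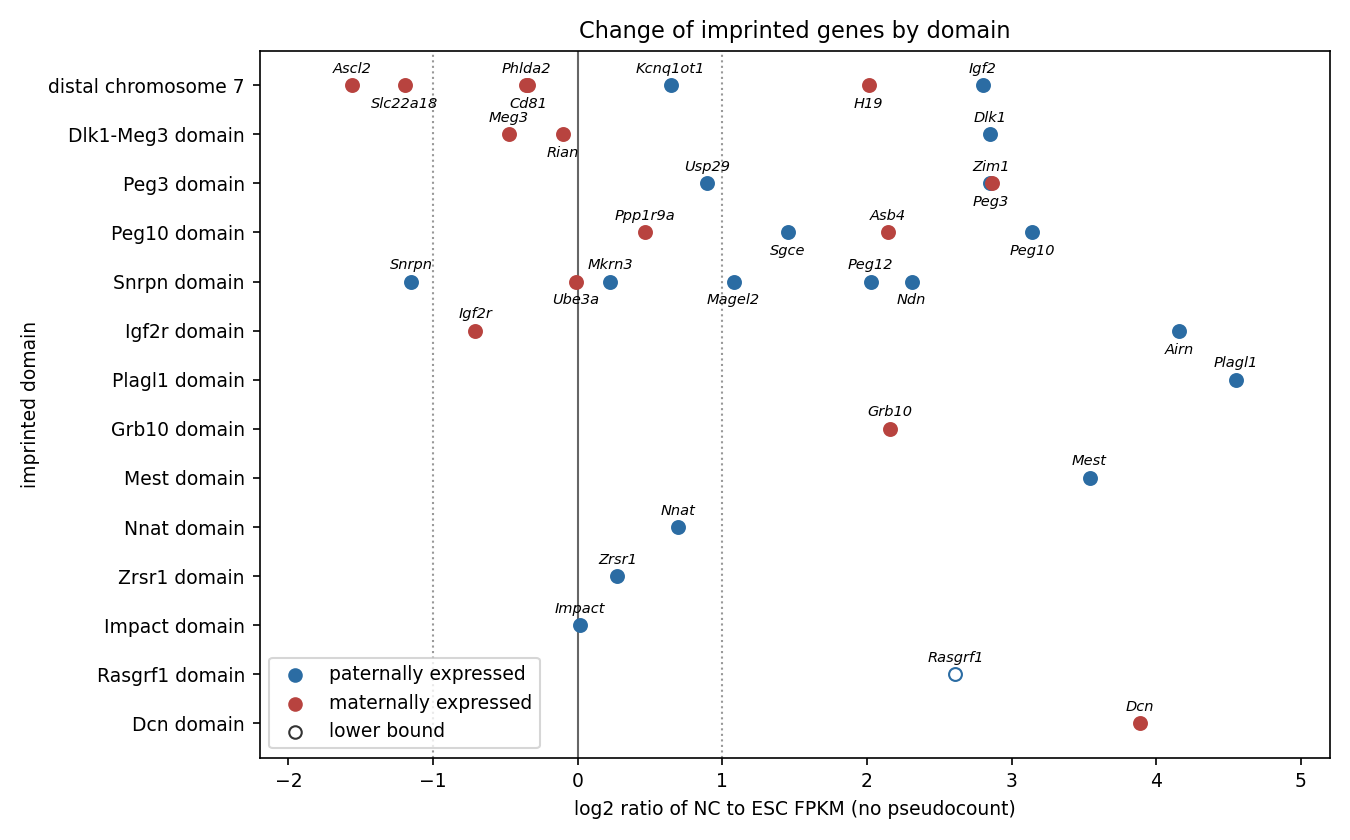
Log2 ratio of NC to ESC FPKM (no pseudocount) of each imprinted gene, by domain, with paternally expressed genes in blue and maternally expressed genes in red. Dotted lines mark 2-fold differences and the open circle is a lower bound, drawn for Rasgrf1 at 2.61. Ratios run from -1.56 for Ascl2 to 4.55 for Plagl1, and in the Dlk1-Meg3 and Igf2r domains the blue point lies to the right of every red one.

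Genes that act on transcription came from both classes. Plagl1 (chromosome 10, 13060504 to 13131694) encodes ZAC1, a paternally expressed transcription factor that has been described as a regulator of other imprinted genes. It rose from 2.01 to 47.0 FPKM, 23.4-fold and the largest fold of the 31 genes that passed the filter, and moved from rank 11120 to rank 1904 of all rows. Peg3 (chromosome 7, 6703892 to 6730431), a paternally expressed zinc finger protein linked to growth and maternal behaviour, rose 7.23-fold, from 20.8 to 150.3 FPKM. Zim1 (6671269 to 6696450), its maternally expressed neighbour, rose 7.27-fold but from a low level, 0.402 to 2.92 FPKM, and passed the filter only through its NC value. Usp29 (6730578 to 6967219), of the ubiquitin protease family, shares the promoter region of Peg3 and is read in the opposite direction. It was at 0.399 and 0.742 FPKM and failed the filter on the mean. Ascl2 (chromosome 7, 142966829 to 142969264), a maternally expressed helix-loop-helix factor needed in the trophoblast, fell 2.94-fold, from 2.65 to 0.899 FPKM, and came within 2-fold when a pseudocount of 1 was added (log2 ratio -0.94).

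The genes known best from the placenta and mesoderm contained the most abundant imprinted RNAs of NCs. Peg10 (chromosome 6, 4747306 to 4760517), a paternally expressed gene derived from a retrotransposon and required for placental development, rose 8.82-fold, from 88.6 to 782 FPKM, and from rank 1084 to rank 126 of all rows. Mest (chromosome 6, 30723547 to 30748465), a paternally expressed enzyme of the alpha/beta hydrolase family, rose 11.6-fold, from 60.9 to 707 FPKM, and reached rank 135. Of its exon bases 23.1% overlap Copg2, which went from 40.2 to 30.0 FPKM. Sgce (chromosome 6, 4674350 to 4747207), the epsilon-sarcoglycan gene that lies head to head with Peg10, rose 2.74-fold, from 11.1 to 30.3 FPKM. The maternally expressed genes beside them were lower in level. Asb4 (5383386 to 5433022), a substrate adaptor of ubiquitin ligases, rose 4.42-fold, from 0.371 to 1.64 FPKM, a call that ended with a pseudocount of 1 (0.94). Ppp1r9a (4902917 to 5165661), an actin-binding scaffold of protein phosphatase, was at 4.58 and 6.32 FPKM.

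Of the listed maternally expressed genes on the Kcnq1 side of distal chromosome 7, Ascl2 and Slc22a18 fell. Phlda2 (143501545 to 143503150), which restrains placental growth, went from 49.1 to 38.4 FPKM. Cd81 (143052739 to 143067934), a tetraspanin, was at 159 and 125 FPKM, and both lay within 2-fold. Slc22a18 (143473736 to 143499334), a membrane transporter, fell 2.29-fold, from 3.23 to 1.41 FPKM, but lay within 2-fold with equal FPKM totals (-0.90). Dcn (chromosome 10, 97479609 to 97518143), a matrix proteoglycan whose imprint is known from the placenta, rose 14.8-fold from a very low level, 0.144 to 2.13 FPKM. It is also a product of fibroblasts, and the markers of these cells are given further on.

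Genes of the Snrpn domain on chromosome 7, the counterpart of the Prader-Willi and Angelman region, showed all 3 outcomes. Ndn (62346569 to 62350262), a MAGE family protein of postmitotic neurons, rose 4.96-fold, from 11.9 to 59.0 FPKM. Peg12 (62461871 to 62464510), which binds the kinase GSK3, rose 4.07-fold, from 1.64 to 6.67 FPKM, and Magel2 (62377010 to 62381640), a second MAGE protein, rose 2.11-fold, from 0.869 to 1.83 FPKM, which a pseudocount of 1 brought to a log2 ratio of 0.60. Mkrn3 (62417593 to 62420139), a RING finger protein that acts on the timing of puberty, was at 6.04 and 7.06 FPKM. Snrpn (59982495 to 60140219), a protein of spliceosomal ribonucleoproteins, was the most abundant paternally expressed gene in ESCs and fell 2.22-fold, from 147 to 66.2 FPKM, but lay within 2-fold with equal FPKM totals (-0.86). It was the only paternally expressed gene of the 17 that passed the filter to lie below 0 on the log2 scale. Part of its signal may be shared, since 34.1% of its exon bases lie within overlapping gene models such as Gm38393, Snurf and Gm18908 and 5.03% of its 50-base words occur in Gm5802 or Gm35595. Ube3a (59228750 to 59311536), a ubiquitin ligase that is maternally expressed only in neurons, was level at 17.7 and 17.6 FPKM, with 27.3% of its exon bases within overlapping gene models such as Gm44560, Snhg14 and 9330162G02Rik.

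The remaining paternally expressed genes lie in domains of their own. Nnat (chromosome 2, 157560078 to 157562522), a membrane proteolipid of the developing brain, went from 56.2 to 91.1 FPKM, 1.62-fold higher. Zrsr1 (chromosome 11, 22972005 to 22976496), related to a splicing factor, was at 6.63 and 8.02 FPKM. Impact (chromosome 18, 12955852 to 12992950), an inhibitor of the translation kinase GCN2, was at 68.2 and 69.1 FPKM. All 3 lay within 2-fold. Rasgrf1 (chromosome 9, 89909908 to 90026977), a Ras exchange factor of neurons, had about 1 fragment in ESCs (0.00296 FPKM) and about 19 fragments in NCs (0.0550 FPKM). The NC level was at least 6.11-fold higher than a floor of 3 fragments, and the mean of the gene failed the filter.

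**Figure D3:**
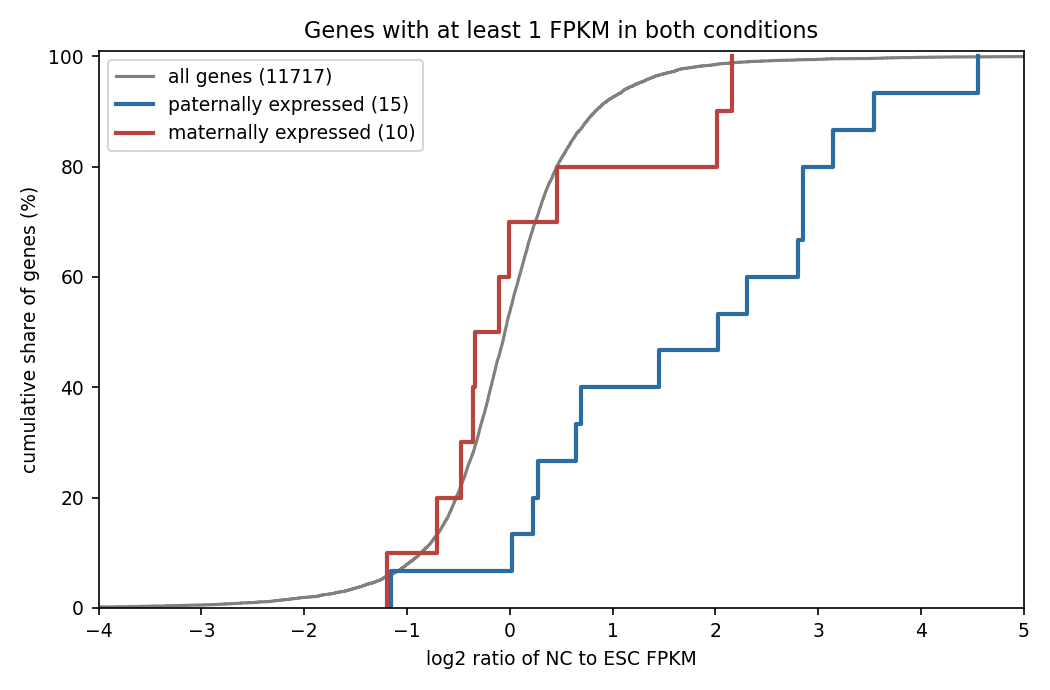
Cumulative share of genes (%) against the log2 ratio of NC to ESC FPKM, for genes with at least 1 FPKM in both conditions, with all 11717 genes in grey, 15 paternally expressed genes in blue and 10 maternally expressed genes in red. The blue curve lies to the right of the grey one, with its median at 2.03, and the red curve crosses the level of 50% at -0.22.

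By domain, the summed FPKM rose from 105 to 820 in the Peg10 domain, from 21.6 to 154 in the Peg3 domain and from 334 to 669 in distal chromosome 7. It was 319 in ESCs and 269 in NCs in the Dlk1-Meg3 domain, 185 and 158 in the Snrpn domain, and 24.2 and 19.7 in the Igf2r domain. Each of these sums is led by a few abundant genes. In the Peg3 and Peg10 domains Peg3, Peg10 and Sgce rose. The maternally expressed Zim1 and Asb4 rose as well, 7.27-fold and 4.42-fold, but passed the filter only through their NC values. In the Dlk1-Meg3 and Igf2r domains, the paternally expressed gene rose while the maternally expressed genes had lower FPKM in NCs. These lay all within 2-fold and, for Rian, were lower only on the deposited scale. Airn, the gene that rose in the Igf2r domain, likewise passed the filter only through its NC value. Of 68 protein-coding genes within 500 kb of the domains that passed the same filter, 7 rose and 7 fell, which is 10.3% each. That is near the 11.1% and 9.93% of all genes. The Snrpn and Dcn domains had no such neighbour. The neighbours that rose were 3 of 9 in distal chromosome 7, 1 of 8 near Plagl1, 1 of 5 near Rasgrf1, and 1 of 2 near each of Peg10 and Impact. The 4 near Mest all lay within 2-fold, and of the 10 near Peg3 none rose and 2 fell.

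ZFP57 recognises the methylated hexamer TGCCGC, and this motif was searched on both strands in the RefSeq promoter windows, from 250 bases before to 50 bases after each start. Windows were given for 29 of the 34 genes, 41 in all, and 9 of them (22.0%) held the hexamer, against 11.6% of all 32851 windows. The hexamer itself contains a CpG, and the median number of CpG per window was 11 for the listed genes and 7 for all windows. The part of CpG content in the 2 shares was not tested. They belong to 8 genes, of which Igf2, Mest, Nnat, Plagl1 and Snrpn are paternally expressed and Grb10, Meg3 and Zim1 are maternally expressed. Of the windows of paternally expressed genes 6 of 24 held it, and of those of maternally expressed genes 3 of 17. The retinoic acid receptor motif DR5 was in none of the 41 windows and in 0.0974% of all windows. Windows of a gene can overlap, as the pair with the hexamer in Mest do by 297 bases and those of Peg3 and Usp29 by 263 bases. A match is a description of these letters and not a measured binding site. Below, 3 windows of paternally expressed genes with the hexamer are shown, for a pair of genes that rose and for Nnat, which stayed within 2-fold. The hexamer is in capitals and reads GCGGCA where it lies on the opposite strand.
Mest promoter (GRCm38.p6, chr6:30737800-30738099, plus strand): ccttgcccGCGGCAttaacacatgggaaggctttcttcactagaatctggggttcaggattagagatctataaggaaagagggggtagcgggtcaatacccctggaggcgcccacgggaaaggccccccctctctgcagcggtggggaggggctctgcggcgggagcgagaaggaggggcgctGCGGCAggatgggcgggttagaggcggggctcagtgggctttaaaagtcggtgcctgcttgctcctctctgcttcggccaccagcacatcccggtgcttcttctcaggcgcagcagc
Plagl1 promoter (GRCm38.p6, chr10:13090582-13090881, plus strand): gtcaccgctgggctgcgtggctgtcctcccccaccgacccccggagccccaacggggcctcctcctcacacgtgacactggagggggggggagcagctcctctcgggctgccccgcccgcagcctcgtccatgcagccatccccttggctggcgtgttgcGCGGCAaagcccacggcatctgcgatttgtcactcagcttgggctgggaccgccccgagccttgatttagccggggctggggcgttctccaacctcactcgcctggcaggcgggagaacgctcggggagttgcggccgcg
Nnat promoter (GRCm38.p6, chr2:157559828-157560127, plus strand): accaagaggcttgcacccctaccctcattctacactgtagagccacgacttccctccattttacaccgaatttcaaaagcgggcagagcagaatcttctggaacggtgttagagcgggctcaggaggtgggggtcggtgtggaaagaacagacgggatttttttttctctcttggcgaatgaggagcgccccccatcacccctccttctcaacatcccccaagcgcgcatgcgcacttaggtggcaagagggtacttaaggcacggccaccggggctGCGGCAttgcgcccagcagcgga
The Mest window holds 2 hexamers and 17 CpG dinucleotides, the Plagl1 window 1 and 26, and the Nnat window 1 and 17. Of the 8 genes with the hexamer, Igf2, Mest, Plagl1, Grb10 and Zim1 rose, Nnat and Meg3 lay within 2-fold, and Snrpn fell on the deposited scale. A relation between hexamer and ratio was not tested.

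Of 38 other imprinted genes, 24 passed the filter, of which 5 rose (20.8%), 1 fell (4.17%) and 18 lay within 2-fold. Over all genes 11.1% rose and 9.93% fell. The median log2 ratio was 0.21, against -0.04 for all genes. Ddc, an enzyme of dopamine and serotonin synthesis that neighbours Grb10, rose 4.19-fold, from 4.20 to 17.6 FPKM. Casd1, the sialic acid acetyltransferase gene beside Sgce, rose 3.20-fold, from 3.76 to 12.0 FPKM. Nap1l5 rose 2.97-fold, from 0.530 to 1.58 FPKM, and passed only through its NC value. Gnas, which encodes the stimulatory G protein subunit, rose 2.56-fold, from 197 to 504 FPKM. Cdkn1c, the maternally expressed cell cycle inhibitor p57, rose 2.34-fold, from 13.3 to 31.2 FPKM, whereas Phlda2 and Slc22a18 beside it had lower FPKM in NCs. Atp10a, a phospholipid flippase gene near Ube3a, fell 3.39-fold, from 8.22 to 2.43 FPKM.

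Of 15 genes listed as acting on imprints, through DNA methylation or otherwise, all passed the filter. None rose, 6 fell and 9 lay within 2-fold, where 11.1% of all genes rose and 9.93% fell. Their median log2 ratio was -0.61, against -0.04 for all genes. Tet1, which oxidises methylated cytosine, fell 10.04-fold, from 41.8 to 4.16 FPKM, and Tet2, of the same family, fell 3.12-fold, from 5.89 to 1.89 FPKM. Dppa3, which protects maternal marks in the zygote, fell 7.47-fold, from 58.6 to 7.85 FPKM. The de novo methyltransferase Dnmt3b fell 4.76-fold, from 105 to 22.1 FPKM, and its cofactor gene Dnmt3l fell 2.91-fold, from 164 to 56.4 FPKM. Zfp57 fell 2.94-fold, from 66.0 to 22.4 FPKM. Within 2-fold lay Trim28, at 459 and 299.9 FPKM, and the maintenance methyltransferase Dnmt1, at 80.2 and 62.7 FPKM. Several of these genes are themselves part of the pluripotent state.

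**Figure D4:**
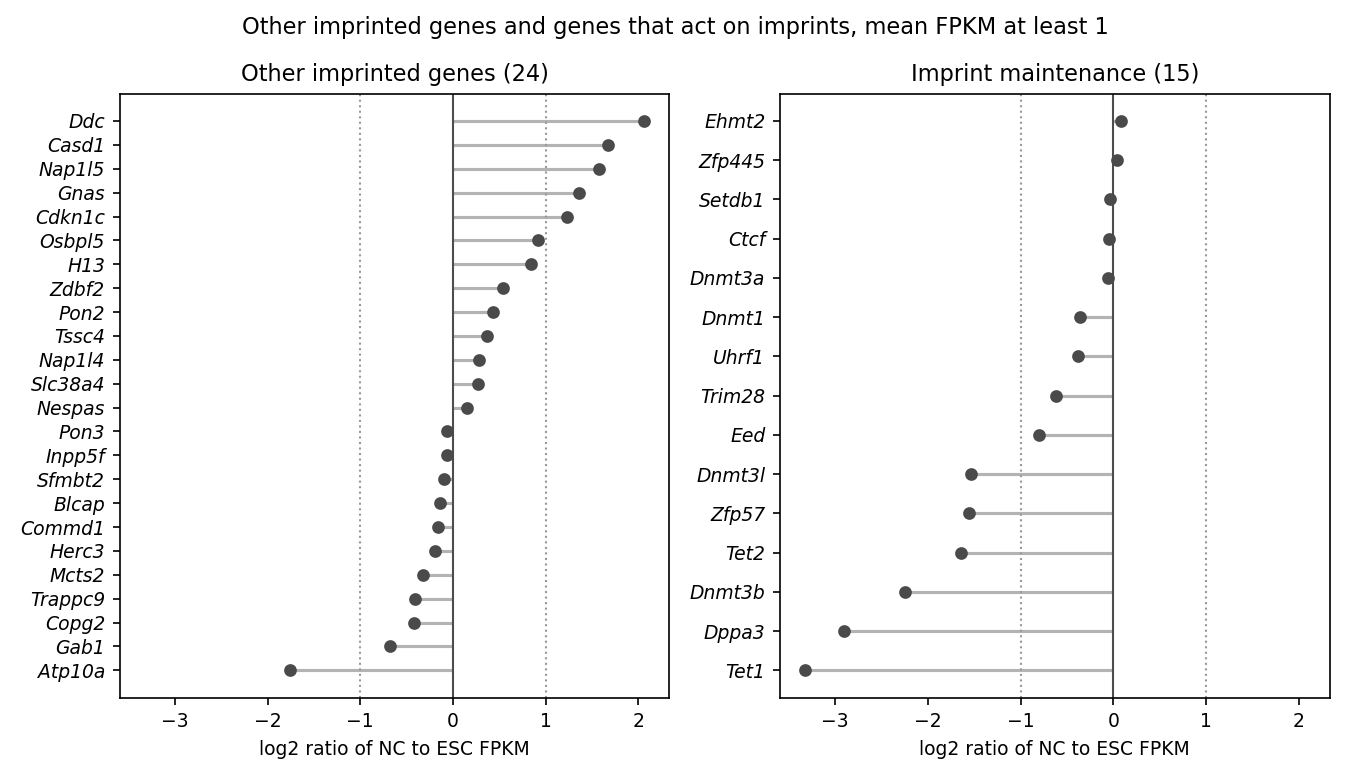
Log2 ratio of NC to ESC FPKM for the 24 other imprinted genes (left) and the 15 genes that act on imprints (right) with a mean of at least 1 FPKM, each as a point joined to 0, with dotted lines at 2-fold. On the left 5 points lie beyond the upper line and Atp10a beyond the lower, and on the right 6 points lie beyond the lower line, led by Tet1 at -3.33.

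The conditions were checked against marker genes. The 8 pluripotency markers all fell and their FPKM summed to 2177 in ESCs and 84.7 in NCs, with Pou5f1 at 832 and 37.1. The 6 genes known to respond to RA all rose, with a sum of 10.05 in ESCs and 759 in NCs. Of 10 neural markers, Pax6 rose from 3.64 to 65.2 FPKM and Sox1 from 1.77 to 21.8 FPKM, both of neural progenitors, while Tubb3 of young neurons fell from 33.4 to 7.54 FPKM. Markers of later neurons were low in NCs, with Dcx at 0.334, Rbfox3 at 0.832 and Map2 at 2.35 FPKM, which were named after their values were seen. The name neuronal cells is that of the study. Among the neural markers named here, those of progenitors had the higher levels in NCs.

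Some markers of other cell types also differed between the conditions, and their part in the results was not tested. Markers of extraembryonic endoderm, a tissue in which Igf2 and H19 are also expressed, summed to 175 FPKM in ESCs and 241 FPKM in NCs. All 9 were higher in NCs, 6 of them at least 2-fold. Of the 7 that passed the filter 4 rose and none fell, where 11.1% of all genes rose and 9.93% fell. Sox17 and Foxa2 among them passed only through their NC values. With at least 1 FPKM in both conditions 2 of 5 rose and none fell, where 7.45% of all genes rose and 7.89% fell. Sparc alone held 142 and 181 FPKM. Among the transcription factors of the list, Gata6 went from 2.37 to 5.48 FPKM and Gata4 from 3.30 to 3.69 FPKM. Sox17 went from 0.861 to 3.996 FPKM and Foxa2 from 0.617 to 5.24 FPKM. Afp and Ttr were low in both conditions, at 0.0161 and 0.0848 FPKM in ESCs and 0.0871 and 0.526 FPKM in NCs. Of 9 fibroblast or feeder cell markers, 6 passed the filter on the mean, of which 4 rose and 1 fell. Col3a1 among them passed only through its NC value, and with at least 1 FPKM in both conditions 3 of 5 rose and 1 fell. All 9 summed to 23.9 FPKM in ESCs and 60.1 FPKM in NCs. Without the filter, 8 were above 0 in both conditions, 4 of them at least 2-fold higher and 3 at least 2-fold lower. Of all genes above 0 in both conditions, 16.2% were at least 2-fold higher and 13.2% at least 2-fold lower. Col1a2 rose from 3.47 to 23.3 FPKM and Twist1 from 1.76 to 14.4 FPKM, while Lum had a listed level of 0 in ESCs and 0.0691 FPKM in NCs. Trophoblast markers summed to 40.7 in ESCs and 12.7 in NCs, with Prl3d1 listed at 0 in both. The lower sum came from Tfap2c, which fell by 2.89 on the log2 scale to 4.59 FPKM, and of the 7 with a ratio 4 had higher and 3 lower FPKM in NCs. The 6 mesoderm markers summed to 2.40 and 7.54 FPKM, of which Meox1 gave 0.253 and 5.43, and 3 were higher and 3 lower in NCs.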

How the data were processed

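RNA was measured by RNA-seq in 3 ESC and 3 NC samples. Per the labels and the study's methods, the authors made Tru-Seq libraries and used TopHat2 2.0.8, Bowtie2 2.1.0, Cufflinks 2.0.2 and Cuffdiff with the mm10 genome. The authors deposited 1 FPKM value per gene and condition, and the heading of the NC column reads FPK. The Cuffdiff version, annotation release and strand setting are not given in the sources used here. The table also holds the authors' log2 fold changes, test statistics, p-values, q-values and calls, which were not used. Depth per sample is unknown. Per kb of effective length and with 200-base fragments, 1 fragment was worth 0.0137 (ESCs) and 0.0135 FPKM (NCs). The resulting floor covers counting error only.

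The tests planned for replicated values could not be run on 1 value per condition. Ratios of NC to ESC FPKM were taken without a pseudocount, and a 2-fold difference with a mean of at least 1 FPKM was called. Named genes were all 34 listed genes, genes of the other imprinted and maintenance lists that were called (at most 8 per list) and up to 3 most abundant genes per marker list. Trim28, Dnmt1, Copg2, Kcnq1 and further markers named outside this rule were chosen after their values were seen. The genes, lists and parental classes were chosen with earlier results of these data known. Positions and overlaps came from GENCODE M21 on GRCm38, promoters and microRNAs from RefSeq on GRCm38.p6. Protein sequences were not used here. The steps that make the calls were run on simulated data, with planted changes well beyond the 2-fold limit and little assumed noise. This checks the code and not the reliability of the calls. Alternatives were other filters, folds, pseudocounts, scaling and centring. Python 3.11.15, numpy 2.4.6, pandas 2.3.3 and matplotlib 3.10.9 were used.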

Additional observations from a re-analysis of the deposited data

How the results depend on the processing

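No paired analysis was possible because the table holds 1 value per condition and its columns carry no replicate numbers, and no sample could be left out for the same reason. Of 110 alternative values of the main counts and medians 85 stayed within 1.5-fold or the limit set for them and 25 moved. The 16 risen imprinted genes became 10 with a mean of at least 5 FPKM. The 3 that fell became 1 with a pseudocount of 1, with a mean of at least 5 and with equal totals, and 0 at 4-fold. The maternal median, -0.06 as reported, was 0.65 with 1 value per domain and 0.24 with equal totals, while the paternal minus maternal difference of 2.08 ranged from 1.60 to 2.41. With equal totals Snrpn at -0.86 and Slc22a18 at -0.90 came within 2-fold, and Rian at 0.19 and Ube3a at 0.28 changed sign. With a pseudocount of 1, Asb4 at 0.94, Magel2 at 0.60, Ascl2 at -0.94 and Slc22a18 at -0.81 came within 2-fold.

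Other imprinted genes that rose numbered 10 without a filter, 10 with a mean of at least 0.1 and 1 at 4-fold, and those that fell 4, 3 and 0, with 2 at 1.5-fold. Maintenance genes that fell numbered 3 at 4-fold. All genes that rose numbered 2947 without a filter, 2458 at a mean of 0.1, 873 at 1 FPKM in both conditions, 634 at a mean of 5, 2471 at 1.5-fold and 537 at 4-fold. Those that fell numbered 2403 without a filter, 1944 at a mean of 0.1, 734 at a mean of 5, 2400 at 1.5-fold and 426 at 4-fold. Filters and fold limits change these numbers by construction, and other causes were not tested. Genes of few fragments, such as Rasgrf1, Airn and Dcn in ESCs, have the least certain ratios.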
